A study of Danio rerio with 6 samples.

Results

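Levels of axon guidance receptors and ligands were measured in embryonic zebrafish heads at 2 days post fertilization, in slbp1 mutants and in wildtype siblings. The list held 60 gene symbols in 4 families, which are ephrins with Eph receptors, Slits with Robo receptors, semaphorins with plexins and neuropilins, and netrins with the receptors DCC, neogenin and UNC5. Of these, 59 symbols were found, in 64 of the 32520 gene rows of the count table. Total RNA of whole heads was sequenced in 3 libraries of slbp1-/- mutants of the line named rw440 in the titles and in 3 libraries of wildtype siblings. The labels do not describe the lesion, the number of heads per library or whether libraries came from separate clutches, so each p-value rests on the variation among the 3 libraries of a group, some or all of which may be technical.

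The symbols were looked up in a reference table that writes many zebrafish genes under an upper-case name. A zebrafish symbol of its own was present for 10 rows, and 24 rows carried an upper-case name held by no other row. The remaining 30 rows shared a name with another row, such as 2 rows each for EPHB2 and PLXNA1, and are told apart here by their Ensembl identifier. Which of these rows is the a or the b copy was not given, and rows of copies not on the list, such as a second EFNA2 row, came in with the shared name. Symbols epha4a and epha4l led to the same pair of EPHA4 rows. No row had the exact symbol plxnb2a, and the rows plxnb2a.1, plxnb2a.2 and plxnb2a.3 were left out of the counts.

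Growing axons are steered by membrane receptors on the growth cone that read attractive and repulsive cues. Ephrins are held on the membrane of neighbouring cells and bind the Eph receptor tyrosine kinases, and in the visual system their graded levels help to map retinal axons onto the midbrain. Slits are secreted and repel axons that carry Robo receptors. Class 3 semaphorins are secreted and act through neuropilin and plexin receptor complexes, netrins attract axons through DCC, and UNC5 receptors turn netrin into a repellent. Many of the same molecules also act outside axons, in blood vessels, neural crest and dividing neuroepithelium.

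Total counts ran from 3421961 to 5395071 per library. The slbp transcript itself had 180.4, 144 and 183 CPM (counts scaled to the library's total and its TMM factor) in mutants 1 to 3, against 98.1, 104 and 87.2 CPM in siblings 1 to 3. It was therefore present in every mutant library and its level does not check the genotypes. Mutant replicate 3 stood apart from the other mutant libraries, with the lowest TMM factor (0.788) and -37.2 on the second principal component against 21.3 and 29.3 for mutants 1 and 2. Counts are therefore given with and without that library where they differ by much.

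The guidance genes split between higher and lower, and most of them were not called. Of 63 rows that passed the count filter, 4 were called higher and 11 lower in mutants by edgeR's quasi-likelihood test at an adjusted p under 0.05 over all genes. That is 23.8% of the tested guidance rows, against 25.7% of the 15561 genes tested. By direction, 6.35% of the guidance rows were higher, against 12.9% of all tested genes, and 17.5% were lower, against 12.8%. The share called is thus near that of all genes. The median log2 fold change was -0.12 over the guidance rows and 0.00 over all genes. The guidance median was 0.073 without mutant replicate 3, -0.29 without mutant replicate 2 and -0.034 without sibling replicate 1, so its sign rests on mutant replicate 3.

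The calls were of moderate size. Only 7 tested rows differed by 2-fold or more, and these 7 were called. EFNA2 (ENSDARG00000031372) and epha2a were higher, and ROBO2, sema3aa, SEMA5A, EPHB2 (ENSDARG00000037373) and PLXNA1 (ENSDARG00000105452) were lower. The other 8 called rows differed by less than 2-fold. The groups did not overlap for 6 rows with mutants above and 15 rows with mutants below, which is 21 of 63, where they did not overlap for 43.6% of all tested genes (21.8% on each side). Without mutant replicate 3 the balance of calls was 9 higher and 9 lower, where all tested genes gave 1755 higher and 1646 lower. Without sibling replicate 1 it was 2 higher and 6 lower, where all tested genes gave 1363 and 1158. Without mutant replicate 1 it was 2 and 8 (all genes 1612 and 1601). Without mutant replicate 2 it was 2 and 13 (all genes 1952 and 1811), and without sibling replicate 3 it was 2 and 7 (all genes 1458 and 1439). With all 6 libraries 2015 genes were called higher and 1989 lower.

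**Figure D1:**
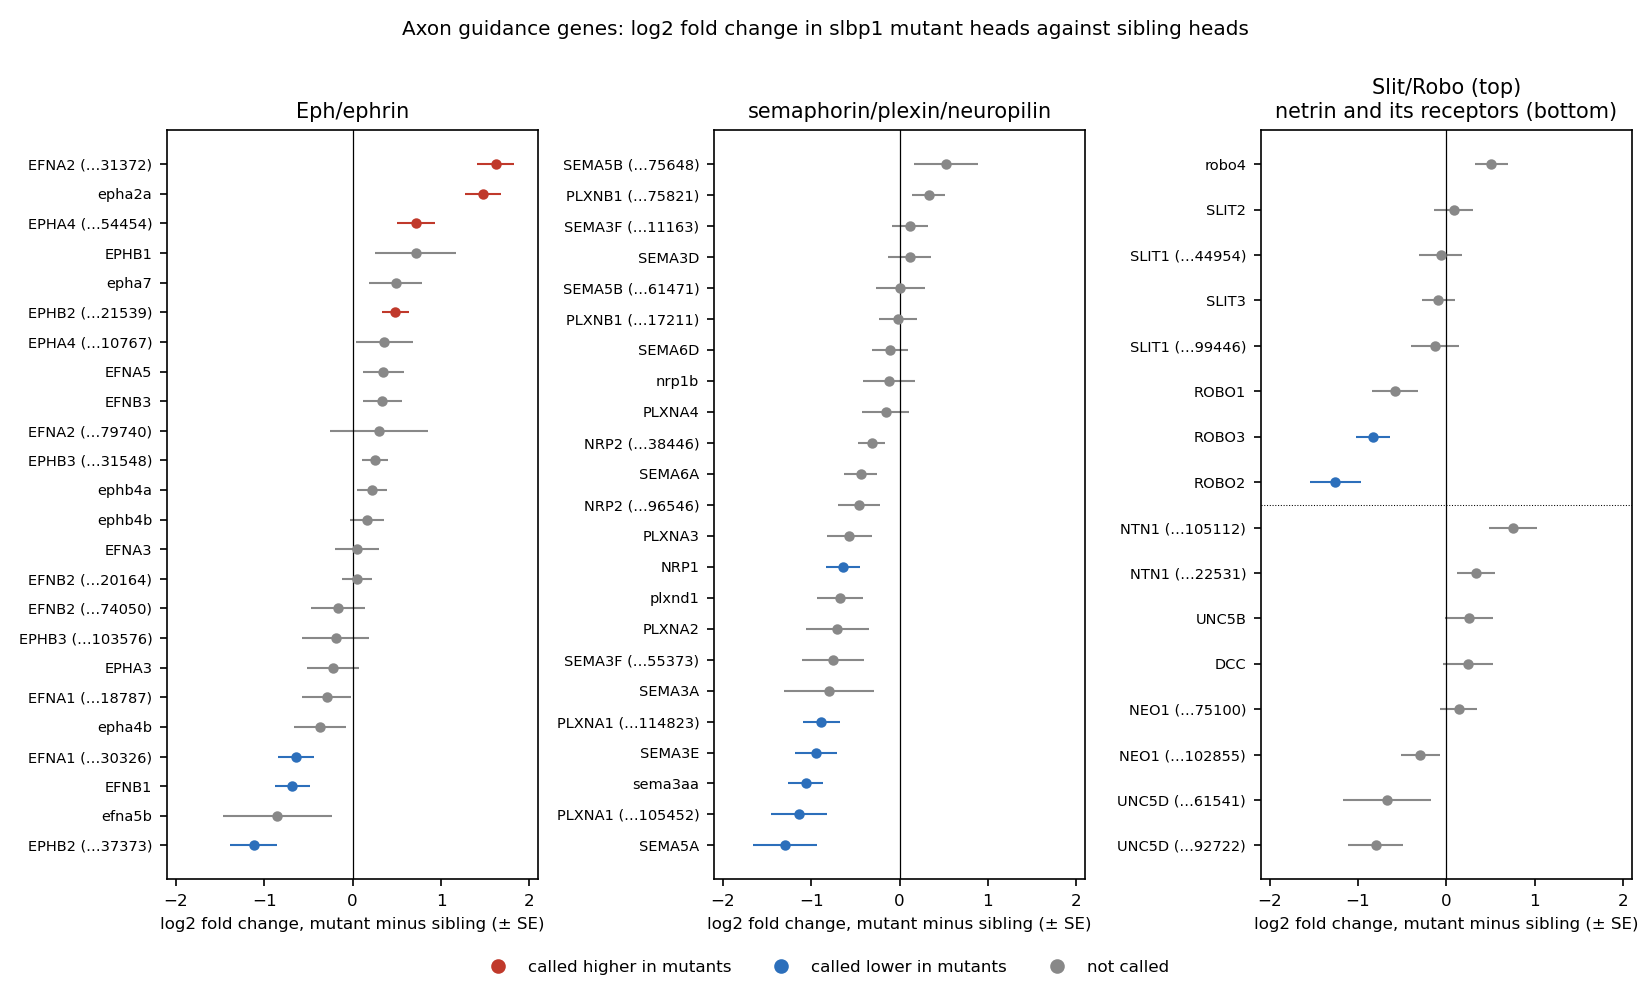
Log2 fold change (mutant minus sibling, x axis) with its standard error for the 63 tested guidance rows, by family; red points were called higher, blue points lower and grey points were not called, and rows that share a name carry the end of their Ensembl identifier. EFNA2 at 1.62 and epha2a at 1.48 lie farthest to the right, and every called row outside the Eph and ephrin panel lies to the left of 0.

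Among the ephrins, 1 of 11 rows was higher and 2 were lower. That is 27.3% of the rows called, near the 25.7% of all tested genes. The highest was EFNA2 (ENSDARG00000031372), a row for ephrin-A2, a membrane-anchored ligand of EphA receptors that is known from the vertebrate midbrain. It had 41.2, 56.1 and 67.8 CPM in mutants, against 19.1, 16.97 and 17.7 CPM in siblings. Every mutant library lay above every sibling library, and mutant replicate 3, the lowest mutant for most other guidance rows, was the highest here. The row was 3.07-fold higher (log2 fold change 1.62 ± 0.21 SE, adjusted p = 0.000195), and it was called under every alternative setting. The second EFNA2 row (ENSDARG00000079740) had 2.32, 3.65 and 1.18 CPM in mutants and 2.07, 2.40 and 1.38 CPM in siblings and was not called.

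EFNB1 encodes a transmembrane ephrin that binds EphB receptors. It had 24.3, 24.6 and 17.5 CPM in mutants, against 34.7, 36.1 and 36.0 CPM in siblings. The siblings lay close together and all above the mutants, with a log2 fold change of -0.68 ± 0.20 (SE, adjusted p = 0.023). EFNA1 (ENSDARG00000030326), a row for ephrin-A1, had 16.4, 20.3 and 23.6 CPM in mutants, against 32.9, 28.2 and 33.1 CPM in siblings, again without overlap (-0.64 ± 0.21 SE, adjusted p = 0.0378). Both calls were lost when any 1 sibling library was left out, at adjusted p from 0.0568 to 0.112. The call on EFNB1 was also lost without mutant replicate 3 (0.0652), and that on EFNA1 without mutant replicate 1 (0.132) or 2 (0.0699) and by DESeq2 (0.0715).

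The other ephrin rows were not called. EFNB2 (ENSDARG00000020164), a row for ephrin-B2, which marks arterial endothelium and also acts in axon guidance, had 55.8, 69.1 and 51.2 CPM in mutants and 52.0, 60.5 and 58.0 CPM in siblings. The groups overlapped, and the log2 fold change was 0.05 ± 0.17 (SE). EFNB3, EFNA5 and EFNA3 had log2 fold changes of 0.33, 0.35 and 0.05, where EFNB3 was called higher without mutant replicate 3 (0.56, adjusted p = 0.0293). The second rows of EFNB2 and EFNA1 had -0.17 and -0.29. For efna5b, with 3.71, 2.74 and 0.236 CPM in mutants and 4.92, 3.69 and 3.63 CPM in siblings, the fold change of -0.85 had an SE of 0.61, so its direction was not resolved.

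Among the Eph receptors, 3 of 13 rows were higher and 1 was lower, where 12.9% of all tested genes were higher and 12.8% lower. Most strongly higher was epha2a, which encodes an EphA receptor that is known from epithelia as well as from the nervous system. It had 70.4, 84.6 and 52.2 CPM in mutants, against 22.8, 27.3 and 24.2 CPM in siblings. The lowest mutant was well above the highest sibling, and the row was 2.78-fold higher (log2 fold change 1.48 ± 0.20 SE, adjusted p = 0.000276). This call held under every alternative setting.

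A milder rise was called for EPHA4 (ENSDARG00000054454), a row for the EphA4 receptor, which binds ephrins of both classes. It had 96.6, 117 and 59.7 CPM in mutants, against 54.3, 57.9 and 53.7 CPM in siblings. Mutant replicate 3 lay just above the siblings and the other mutants far above them. The log2 fold change was 0.72 ± 0.21 (SE, adjusted p = 0.0264), and the call was lost with scaling by total counts alone (adjusted p = 0.206) and without any 1 library except mutant replicate 3. The second EPHA4 row (ENSDARG00000010767) had 0.36 ± 0.32, and epha4b had -0.37 ± 0.30 (log2 fold change ± SE), and neither was called.

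The pair of EPHB2 rows moved in opposite directions. EphB2 is a receptor of B-class ephrins, known from retinal and commissural axons. EPHB2 (ENSDARG00000037373) had 7.18, 9.35 and 7.32 CPM in mutants, against 20.4, 17.7 and 14.0 CPM in siblings. It was lower in mutants without overlap (log2 fold change -1.12 ± 0.27 SE, adjusted p = 0.00847), under every alternative setting. EPHB2 (ENSDARG00000021539) had 77.4, 83.0 and 68.2 CPM in mutants, against 55.4, 57.9 and 50.2 CPM in siblings. It was higher by 0.48 ± 0.16 (log2, SE, adjusted p = 0.0384), and this call was lost in 10 of 15 alternatives, among them DESeq2 (adjusted p = 0.0694), total counts alone (0.401) and leaving out any 1 library except mutant replicate 3 (0.0702 to 0.144).

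The remaining Eph receptor rows were not called. EPHB3 (ENSDARG00000031548) had 85.7, 81.2 and 85.5 CPM in mutants and 69.3, 75.6 and 66.3 CPM in siblings, so the groups did not overlap, but the log2 fold change was only 0.26 ± 0.15 (SE, adjusted p = 0.218). The vascular receptor gene ephb4a and its copy ephb4b had 0.22 and 0.17. EPHB1, epha7 and EPHA3 had 0.71 ± 0.46, 0.49 ± 0.30 and -0.22 ± 0.29 (log2 fold change ± SE), and the second EPHB3 row had -0.19. Summed over the 13 Eph receptor rows, the level was 493, 579 and 408 CPM in mutants, against 375, 387 and 363 CPM in siblings. Scaling by total counts alone brought the log2 ratio of group means for the whole Eph and ephrin family to 0.057, against 0.31 with TMM factors.

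**Figure D2:**
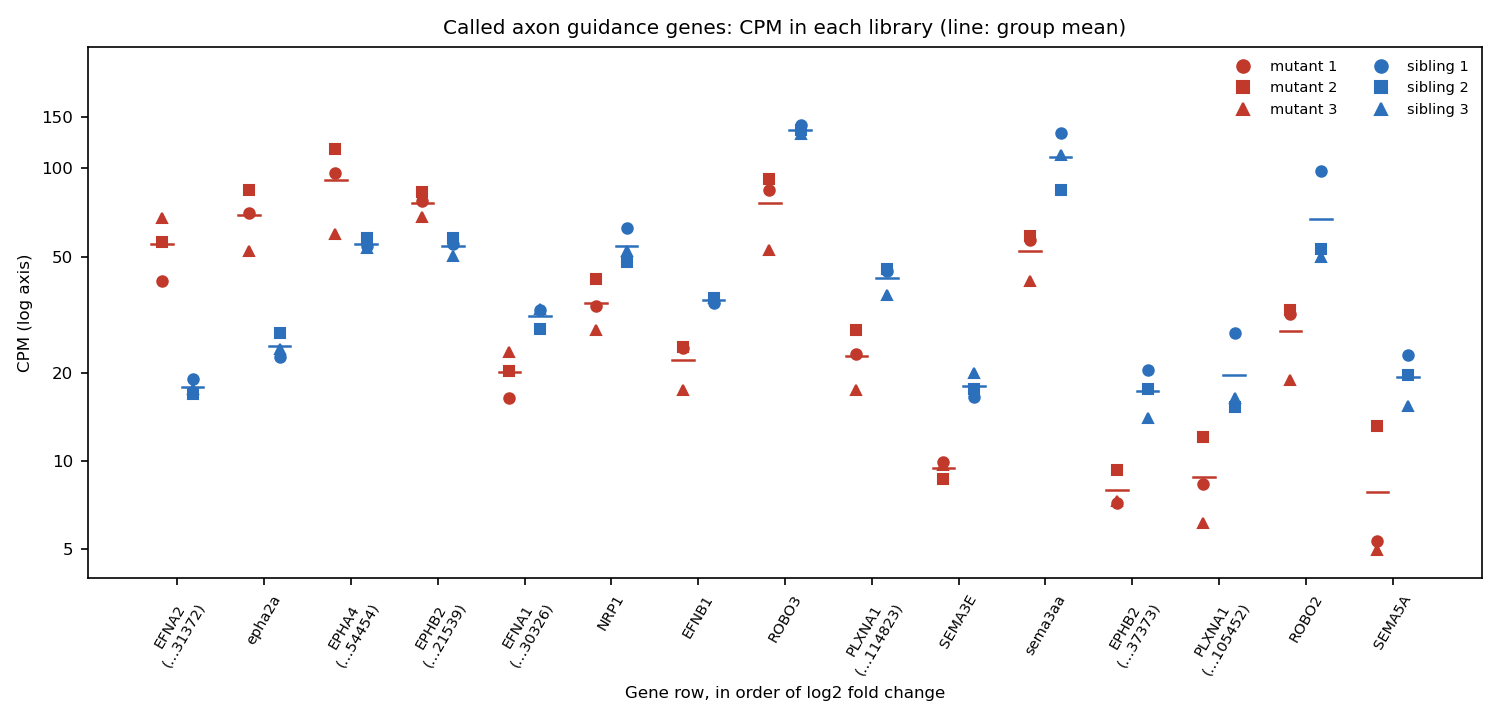
CPM on a log axis in each of the 6 libraries for the 15 called guidance rows, in order of log2 fold change; red symbols are mutants, blue symbols siblings, symbol shapes mark replicates and short lines are group means. The 4 rows at the left lie higher in mutants and the 11 others lower, without overlap in any row, and the mutant triangle (replicate 3) is the lowest mutant in most rows.

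In the Slit and Robo family 2 of 8 rows were called (25%), against 25.7% of all tested genes. Both were lower, where 12.8% of all tested genes were lower. They were ROBO2 and ROBO3, among the 4 Robo rows, and these are too few rows to set receptors against ligands. ROBO2 is the Slit receptor whose loss in the zebrafish astray mutant misroutes retinal axons. It had 31.7, 32.8 and 18.9 CPM in mutants, against 98.1, 53.1 and 49.7 CPM in siblings. Sibling replicate 1 was far above the other siblings, but the lowest sibling was still above the highest mutant. ROBO2 was 2.39-fold lower in mutants (log2 fold change -1.26 ± 0.29 SE, adjusted p = 0.00783), and without sibling replicate 1 the log2 fold change was -0.89 (adjusted p = 0.0314).

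ROBO3, the divergent Robo receptor that commissural neurons of the hindbrain need to send axons across the midline, had 84.1, 91.7 and 52.7 CPM in mutants. In siblings it had 140.2, 135 and 131 CPM. The siblings were tightly grouped and the mutants all lay below them, with a log2 fold change of -0.83 ± 0.19 (SE, adjusted p = 0.00785). The calls on ROBO2 and ROBO3 held under every alternative setting. ROBO1 had 88.7, 115 and 49.8 CPM in mutants and 149, 127 and 104 CPM in siblings, with an overlap between mutant replicate 2 and sibling replicate 3, and was not called (-0.58 ± 0.26 SE, adjusted p = 0.123). Without mutant replicate 2 its log2 fold change was -0.87 (adjusted p = 0.0352).

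The fourth receptor, robo4, lay on the other side of 0. It is known from vascular endothelium in mammals and fish. It had 124, 147 and 97.5 CPM in mutants, against 79.4, 102 and 77.0 CPM in siblings, with mutant replicate 3 below sibling replicate 2. The log2 fold change was 0.51 ± 0.18 (SE), just outside the threshold at an adjusted p of 0.0587, and without mutant replicate 3 it was 0.66 (adjusted p = 0.0109). Among 20 tested markers of vascular endothelium 3 were lower, namely aplnrb, TAL1 and SOX7, and 17 were not called. That is 15% lower, near the 12.8% of all tested genes. The summed level of these markers was 306 to 354 CPM in mutants and 346 to 396 CPM in siblings.

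None of the 4 Slit rows was called, where 25.7% of all tested genes were. By edgeR 0 were called and 0 had an unadjusted p under 0.05, and DESeq2 and limma-voom also called 0 of them. SLIT2 had 36.6, 63.9 and 35.4 CPM in mutants and 42.2, 42.6 and 43.4 CPM in siblings, so the mutants spread widely on both sides of a tight sibling group. SLIT1 (ENSDARG00000044954) was alike, with 65.1, 88.3 and 38.0 CPM in mutants and 70.4, 66.2 and 63.9 CPM in siblings. The log2 fold changes of the 4 rows ran from -0.13 to 0.08 with standard errors from 0.19 to 0.27. Summed Slit levels were 157, 242 and 128 CPM in mutants and 179.6, 183 and 181 CPM in siblings.

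Semaphorins, plexins and neuropilins gave 6 lower calls among 23 rows and 0 higher ones, and 18 of the 23 had a negative log2 fold change. Over all tested genes 12.8% were called lower and 12.9% higher. No row had an unadjusted p under 0.05 in the higher direction, and 9 had one in the lower direction. At that threshold 2980 of all 15561 tested genes were higher and 2975 lower. DESeq2 and limma-voom also called 6 lower and 0 higher. The median was -0.46, against 0.00 over all genes. Without sibling replicate 1 there were 3 lower calls, and without mutant replicate 3 there were 5 lower and 1 higher.

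Of the ligands, sema3aa, SEMA3E and SEMA5A were lower. Sema3A is a secreted repellent that collapses growth cones through neuropilin-1 and A-class plexins. The row sema3aa had 57.0, 58.9 and 41.1 CPM in mutants, against 132, 84.5 and 111 CPM in siblings. All mutants lay below all siblings, at a log2 fold change of -1.06 ± 0.20 (SE, adjusted p = 0.00228), under every alternative setting. The second Sema3A row, SEMA3A, was low and scattered, with 11.3, 5.47 and 1.89 CPM in mutants and 6.73, 10.7 and 14.9 CPM in siblings, and was not called (log2 fold change -0.80, adjusted p = 0.273). Without mutant replicate 1, SEMA3A was called lower (-1.56, adjusted p = 0.046).

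SEMA3E encodes a secreted semaphorin that binds plexin-D1. It had 9.96, 8.67 and 9.68 CPM in mutants, against 16.6, 17.7 and 20.1 CPM in siblings. Replicates agreed closely in each group, and the log2 fold change was -0.94 ± 0.24 (SE, adjusted p = 0.0123). SEMA5A, a membrane semaphorin, had 5.33, 13.2 and 4.96 CPM in mutants, against 23.0, 19.7 and 15.4 CPM in siblings. Mutant replicate 2 came near the lowest sibling, and the row was 2.45-fold lower (-1.29 ± 0.36 SE, adjusted p = 0.0183). The call on SEMA3E was lost without sibling replicate 3 (adjusted p = 0.054), and that on SEMA5A without mutant replicate 1 (0.07) or without sibling replicate 1 (0.0752) or 2 (0.0557).

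The other semaphorin rows were not called. SEMA6A, a transmembrane semaphorin that acts both as ligand and as receptor, had 69.7, 68.4 and 51.7 CPM in mutants and 90.6, 98.7 and 68.7 CPM in siblings (log2 fold change -0.44 ± 0.18 SE, adjusted p = 0.0958). The groups overlapped only through sibling replicate 3. SEMA6D and SEMA3D had -0.10 and 0.12, the SEMA3F rows 0.12 and -0.75, and the SEMA5B rows 0.01 and 0.52. SEMA3F (ENSDARG00000055373) was called lower without mutant replicate 2 (-1.17, adjusted p = 0.0435), and SEMA5B (ENSDARG00000075648) was called higher without mutant replicate 3 (0.86, adjusted p = 0.0442).

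Both PLXNA1 rows were lower. Plexin-A1 is a signalling subunit of the Sema3 receptor. PLXNA1 (ENSDARG00000114823) had 23.2, 28.1 and 17.5 CPM in mutants, against 44.8, 45.2 and 37.0 CPM in siblings. PLXNA1 (ENSDARG00000105452) had 8.34, 12.1 and 6.14 CPM in mutants, against 27.4, 15.3 and 16.4 CPM in siblings. Neither row had overlapping groups, and the log2 fold changes were -0.88 ± 0.21 and -1.14 ± 0.32 (SE, adjusted p = 0.00818 and 0.0196). The first call held under every alternative setting, and the second was lost without mutant replicate 1 (adjusted p = 0.0584) or sibling replicate 1 (0.102).

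Other plexin rows were not called. PLXNA2 and PLXNA3 had log2 fold changes of -0.70 ± 0.36 and -0.57 ± 0.25 (SE), and PLXNA4 had -0.16 ± 0.27. The row plxnd1, for the Sema3E receptor that patterns blood vessels, had 12.0, 10.7 and 8.50 CPM in mutants, against 13.2, 19.4 and 17.1 CPM in siblings. Its groups did not overlap, but the difference was outside the threshold (-0.67 ± 0.26 SE, adjusted p = 0.0755). The PLXNB1 rows had -0.02 and 0.33. Beside the list, plxnb2a.1 averaged 22.2 CPM in mutants, with an SD of 3.78, and 20.4 CPM in siblings, with an SD of 3.93 (n = 3 each).

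Of the neuropilins, the ligand-binding co-receptors of class 3 semaphorins, NRP1 was lower. It had 33.8, 42.0 and 28.1 CPM in mutants, against 62.6, 47.9 and 52.1 CPM in siblings. No mutant reached the lowest sibling, and the log2 fold change was -0.64 ± 0.19 (SE, adjusted p = 0.0277). The call was lost without mutant replicate 1 or 3 or without sibling replicate 1 or 3, at adjusted p from 0.0641 to 0.112. Its copy nrp1b had -0.12 ± 0.29 and was not called. NRP2 (ENSDARG00000038446) had 72.5, 74.4 and 62.8 CPM in mutants and 96.5, 83.7 and 81.2 CPM in siblings, without overlap, yet was not called (-0.32 ± 0.15 SE, adjusted p = 0.15), nor was the second NRP2 row (-0.46 ± 0.24 SE).

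Of the netrins and their receptors, edgeR and limma-voom called 0 of 8 tested rows, and DESeq2 called 0 of 9. By edgeR 25.7% of all tested genes were called. At an unadjusted p under 0.05 by edgeR, 1 row was higher and 1 lower, against 2980 and 2975 of all 15561 tested genes. NTN1 (ENSDARG00000105112), a row for the midline attractant netrin-1, had 36.1, 45.4 and 23.1 CPM in mutants and 21.0, 25.8 and 15.4 CPM in siblings. The groups overlapped through mutant replicate 3, and the log2 fold change was 0.75 ± 0.27 (SE, adjusted p = 0.0545). NTN1 (ENSDARG00000022531) had 69.3, 80.8 and 44.6 CPM in mutants and 46.8, 59.6 and 48.1 CPM in siblings (0.33 ± 0.21 SE). Without mutant replicate 3 both NTN1 rows were called higher, and in that fit the second had a log2 fold change of 0.55 (adjusted p = 0.0327).

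Netrin-1 is made by the floor plate. Of 15 tested floor plate and midline markers 7 were higher, against 12.9% of all tested genes. Among them were nkx2.2b, SHH (ENSDARG00000068567), foxa and nkx2.9 at log2 fold changes of 2.19, 0.91, 1.73 and 2.94. The row nkx2.9 had only 2, 8 and 0 counts in siblings 1 to 3. The other 8 markers were not called. Of these, chosen after their values were seen, SPON1 (ENSDARG00000023694) had -0.06 and the second SHH row 0.20. The summed level of the whole list was 493 to 568 CPM in mutants and 368 to 423 CPM in siblings. The part of floor plate cells in the NTN1 values was not tested. NTN4 had 20 counts over the 6 libraries, 0.456 to 1.18 CPM in mutants and 0.369 to 0.776 CPM in siblings, and did not pass the count filter.

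The 6 netrin receptor rows had a median log2 fold change of -0.08. DCC, which carries the attractive response, had 14.4, 21.0 and 11.3 CPM in mutants and 15.3, 13.8 and 10.6 CPM in siblings (log2 fold change 0.24 ± 0.28 SE). NEO1 (ENSDARG00000102855), a row for neogenin, which also binds repulsive guidance molecules, had 52.1, 86.5 and 45.6 CPM in mutants and 81.2, 76.3 and 68.5 CPM in siblings. Its highest library was mutant replicate 2 and its 2 lowest were the other mutants, and without mutant replicate 2 it was called lower (-0.63, adjusted p = 0.0266). The other NEO1 row had 0.14 and UNC5B had 0.26. UNC5D (ENSDARG00000092722), a row for a repulsive netrin receptor, had 6.49, 7.76 and 4.72 CPM in mutants, against 10.6, 13.5 and 9.00 CPM in siblings, with no overlap (-0.80 ± 0.31 SE, adjusted p = 0.0743). The other UNC5D row had -0.67 ± 0.50.

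**Figure D3:**
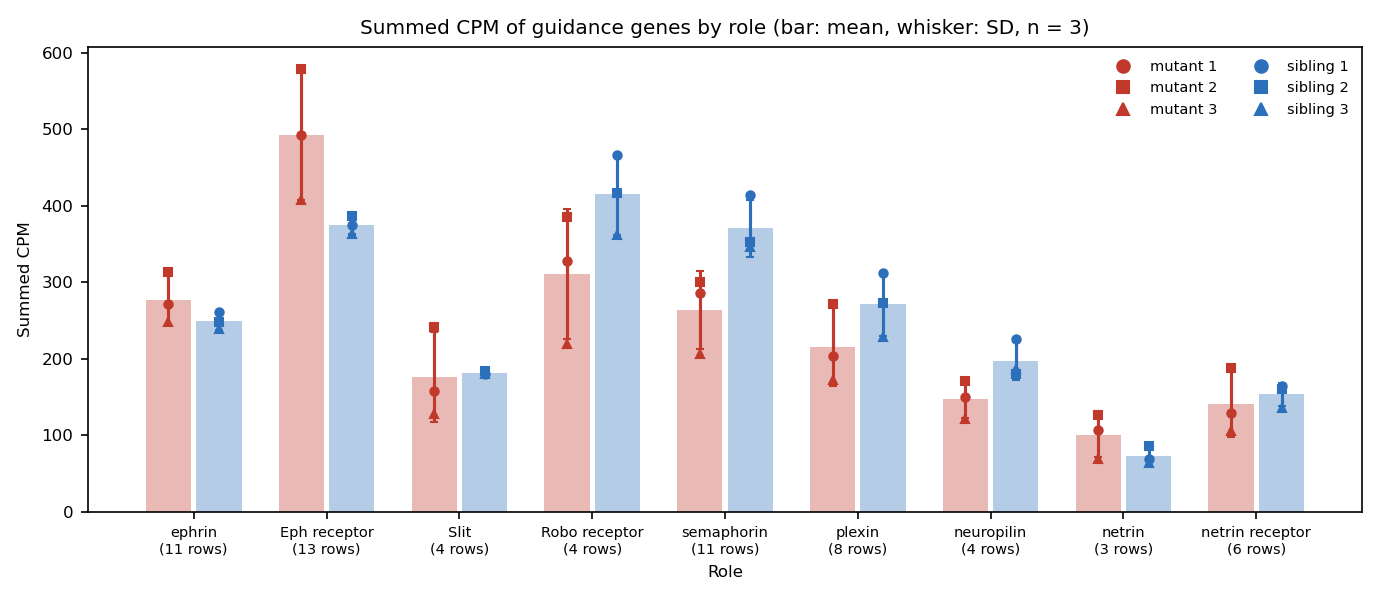
Summed CPM of the guidance rows by role, with bars for the mean, whiskers for the SD (n = 3) and points for the libraries; mutants (red) stand left of siblings (blue). Mutant replicate 2 is the highest and mutant replicate 3 the lowest mutant in each of the 9 roles, and the Slit sums spread from 128 to 242 CPM in mutants around siblings at 179.6 to 183 CPM.

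The mutant libraries differed from each other in the same order across the guidance families. Mutant replicate 3 was the lowest mutant for 51 of 63 tested rows (81.0%), where it was lowest for 38.1% of all tested genes. Mutant replicate 2 was the highest mutant for 49 of 63 rows (77.8%), against 33.1% of all tested genes. Summed semaphorin, plexin and neuropilin levels were 639, 743 and 499 CPM in mutants, against 951, 805 and 760.4 CPM in siblings. Summed Slit and Robo levels were 486, 628 and 347 CPM in mutants and 646, 601 and 542 CPM in siblings, so mutant replicate 2 fell within the sibling range there.

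General neuronal markers were lower in mutants. Over all tested genes 12.8% were called lower. Of 26 tested pan-neuronal markers 16 were lower and 10 were not called, with a median log2 fold change of -1.10. They included GNG3, sncb, STMN2 (ENSDARG00000070537) and SNAP25 (ENSDARG00000020609). Their summed level was 2948, 2651 and 1803 CPM in mutants 1 to 3, against 5385, 4500 and 4153 CPM in siblings 1 to 3, and no marker of the list found in the table was without counts. Mutant replicate 3 was the lowest mutant for 24 of these 26 markers. In whole heads, fewer cells of a type and less RNA per cell cannot be told apart, and the part of neuron content in the lower guidance rows was not tested.

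Of 14 tested markers listed for retinal ganglion cells, whose axons use many of these receptors, 12 were lower and 1 was higher. Over all tested genes 12.8% were lower and 12.9% higher. In this list POU4F2 had a log2 fold change of -3.68, ISL1 -1.74 and RBPMS2 (ENSDARG00000045930) -1.72. The libraries held whole heads, and the part of retinal ganglion cells in these values was not tested. POU4F3 had 0 to 0.463 CPM in mutants, at most 2 counts in a library, and 7.01 to 13.5 CPM in siblings. Neural progenitor markers went the other way, with 15 of 23 higher and 1 lower. Among them were PCNA, SOX3 and MCM3 at log2 fold changes of 1.85, 1.46 and 1.21. The list mixed genes of neural progenitors with replication and cell cycle genes, such as PCNA and MCM3, which any dividing cell expresses. Beside the 4 higher guidance rows, the summed level of this mixed list was 7602, 7772 and 8287 CPM in mutants 1 to 3. In siblings 1 to 3 it was 3323, 4446 and 3700 CPM. Mutant replicate 3 was the highest mutant in this sum and for EFNA2 (ENSDARG00000031372). For epha2a, EPHA4 (ENSDARG00000054454) and EPHB2 (ENSDARG00000021539), the other higher rows, it was the lowest mutant. The part of progenitors or other dividing cells in those rows was not tested.

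Zebrafish keeps duplicate copies of many guidance genes. For 13 pairs of duplicate copies, the log2 ratio of the CPM of both rows was compared between the groups by a two-sided exact permutation test, in which 3 against 3 libraries cannot give a p under 0.10. With all libraries the largest difference was in the EPHB2 pair, and without mutant replicate 1 it was in EFNA5 over efna5b (1.79, against 1.48 for EPHB2). The ratio of ENSDARG00000021539 over ENSDARG00000037373 was 3.19 ± 0.136 in mutants and 1.63 ± 0.198 in siblings (SD, n = 3 each, log2), a difference of 1.55 without overlap (exact permutation p = 0.1, adjusted 0.26 over the 13 pairs).

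EFNA5 over efna5b came next, at 3.93 ± 0.981 in mutants and 2.54 ± 0.064 in siblings, a difference of 1.39, with efna5b at very few counts in mutant replicate 3, without which the difference was 0.84. The SEMA3F pair had 1.79 ± 0.436 in mutants and 0.93 ± 0.371 in siblings, with overlap (exact permutation p = 0.2). The log2 ratio of nrp1b over NRP1 was -1.69 ± 0.137 in mutants and -2.23 ± 0.386 in siblings. The NEO1 and NTN1 pairs had smaller differences, of 0.46 and -0.42. Like the EPHB2 pair, the EFNA5, nrp1b, NEO1 and NTN1 pairs did not overlap between the groups (exact permutation p = 0.1 each, adjusted 0.26). The ephb4 and SLIT1 copies kept nearly the same ratio, with differences of -0.04 and 0.04. Copies of near-identical sequence can share reads, and how such reads were counted is not stated in the sources used here, so these ratios are uncertain.

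**Figure D4:**
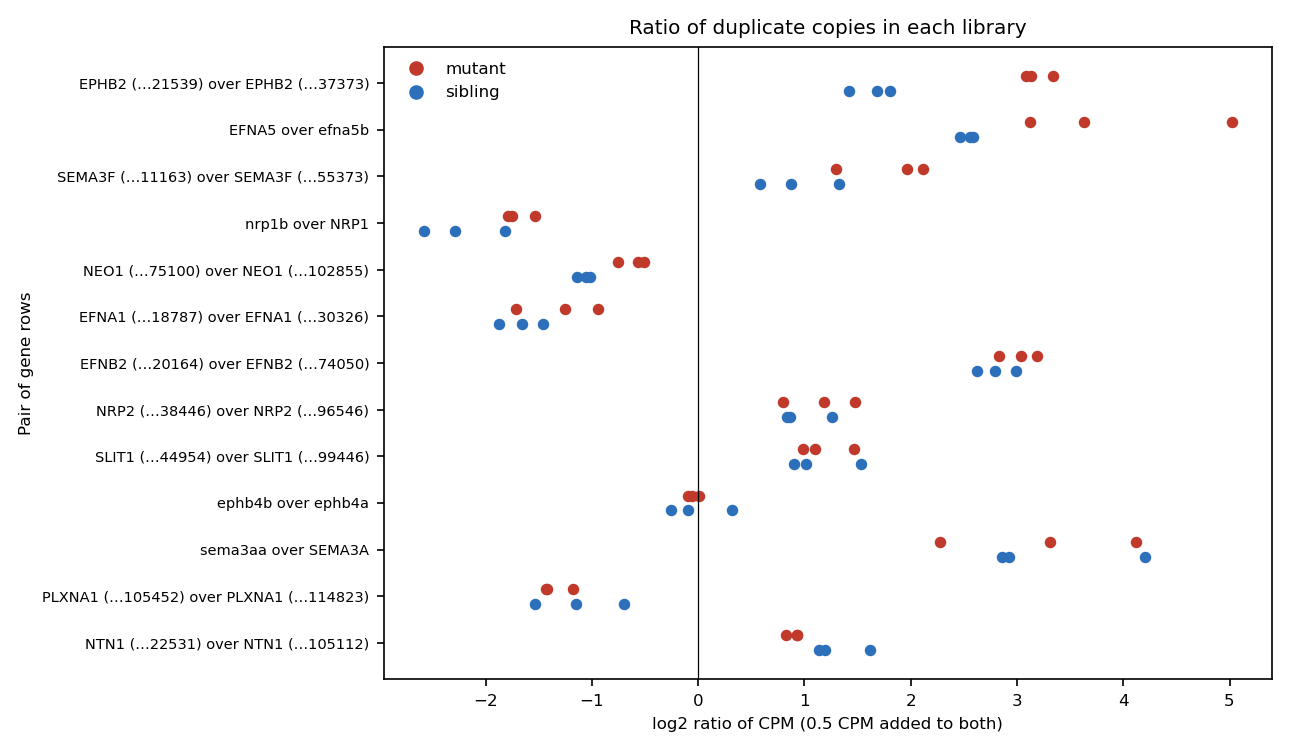
Log2 ratio of the CPM of a pair of copies (0.5 CPM added to each) in every library for 13 pairs; red points are mutants and blue points siblings. The EPHB2 ratio is 3.08 to 3.34 in mutants and 1.42 to 1.80 in siblings. The EFNA5, nrp1b, NEO1 and NTN1 pairs do not overlap between the groups either, and the remaining pairs, ephb4 and SLIT1 among them, overlap.

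Further genes of the pathways, outside the 60 symbols, were read from 3 lists. In that of other Slit, Robo and netrin genes 7 of 15 tested were lower and 1 was higher (median log2 fold change -0.97). Over all tested genes 12.8% were lower. The list also held genes outside these families, and every gene named from it here is one of them. Most strongly lower was DSCAM (ENSDARG00000028118), a row for an adhesion molecule that also binds netrin, at 12.5, 8.90 and 5.67 CPM in mutants, against 125, 70.3 and 75.3 CPM in siblings (log2 fold change -3.31 ± 0.30 SE, adjusted p = 1.54e-05). NELL2 (ENSDARG00000062797), whose mammalian product is a Robo3 ligand, had -1.42, and RGMB, a neogenin ligand, had -0.97. The higher one was rgmd, a repulsive guidance molecule gene by its name, at 0.85. In the lists of other Eph and ephrin genes and of other semaphorin and plexin genes, 1 of 5 and 1 of 16 were lower, namely efna3a (-1.97) and SEMA6C (-0.92).

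Intracellular effectors of the guidance receptors had 14 of 61 tested rows lower and 4 higher, against 12.8% lower and 12.9% higher over all genes. Genes of the collapsin response mediator family, which relays Sema3A signals to microtubules, were among the lower ones, with CRMP1 at -2.10 ± 0.24 and DPYSL3 at -1.08 ± 0.21 (log2 fold change ± SE). Not every row of that family was called, and DPYSL5 (ENSDARG00000011141), chosen after its values were seen, had 0.08 ± 0.20. The exchange factor gene KALRN had -1.26 and EVL, which encodes an actin regulator of the Ena/VASP family, had -0.94. The 4 risers, chosen after their values were seen, were RASA1 (ENSDARG00000035535), ENAH, rac1a and ROCK2 (ENSDARG00000017500), at 0.63, 0.65, 0.49 and 0.55. Axon adhesion molecules had 6 of 23 lower, among them NCAM2 (ENSDARG00000017466), cntn2 and cdh4, and 2 higher, alcamb at 0.92 and chl1a at 1.64, the second chosen after its values were seen.

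**Figure D5:**
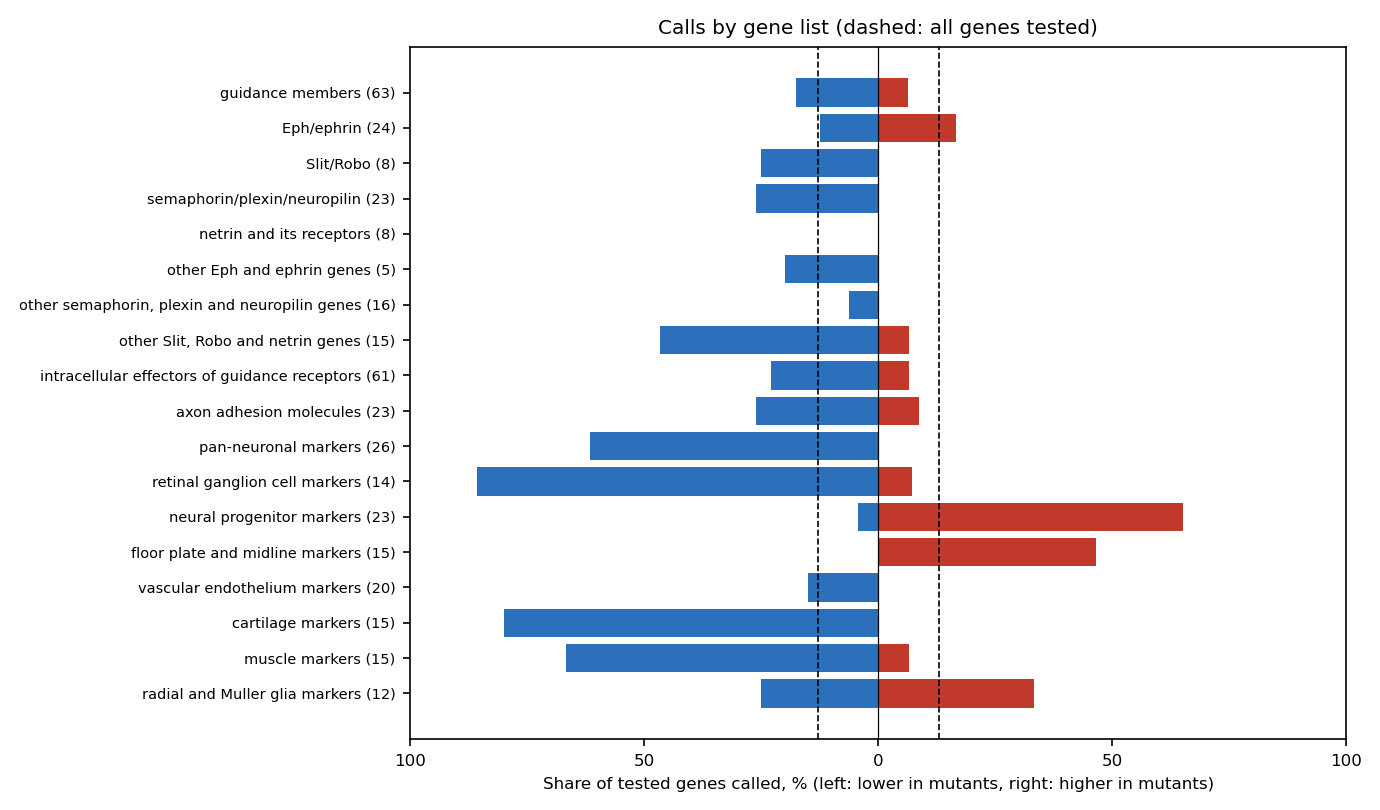
Share of tested genes called lower (blue, to the left) and higher (red, to the right) in mutants, in percent, for the guidance rows, their 4 families and 13 other lists, with the number tested in brackets; dashed lines mark all tested genes (12.8% lower, 12.9% higher). The guidance rows reach 17.5% lower and 6.35% higher, and the pan-neuronal, retinal ganglion cell, cartilage and muscle markers reach far to the left.

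The remaining marker lists show what else moved in these heads, where 12.8% of all tested genes were lower and 12.9% higher. Cartilage markers had 12 of 15 lower, led by col9a3, MATN4, COL9A1 and COL9A2, and muscle markers had 10 of 15 lower and 1 higher, with atp2a1 and TNNC2 in front. Radial and Muller glia markers had 4 of 12 higher and 3 lower, with GFAP higher and SLC1A2 (ENSDARG00000102453) lower. Semaphorins, ephrins and Slits are also made by cartilage, muscle and glia, and the part of these tissues in the guidance values was not tested.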

How the data were processed

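For 6 libraries, the authors deposited a table of unnormalized counts with 1 row per Ensembl gene. HISAT2, featureCounts and the build GRCz11 are named per the submitters' processing notes. Their versions, the annotation release, the strand setting and the handling of multi-mapping reads were not given in these sources, and reads of overlapping genes cannot be told apart. A reference table gave symbols for 29201 of 32520 genes. Members, lists and tests were chosen with earlier results of these data known.

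The test was edgeR 4.0.16 under R 4.3.3 (filterByExpr, TMM factors from 0.788 to 1.14, robust quasi-likelihood fit, two-sided, Benjamini-Hochberg over all 15561 genes tested, threshold 0.05). Fold changes are mutant minus sibling. The SE of a log2 fold change was derived from the test, as its absolute value over the square root of the quasi-likelihood F statistic. A count of 3 corresponds to 0.519 to 0.776 CPM per library, for counting error only. CPM is not scaled by gene length, so levels are compared between groups and not between genes. No replicates agreed within sampling noise (chi-square per degree of freedom from 6.34 to 17.6). The fit was also run on simulated data of 15233 genes. Of these, 200 were changed, 100 by 2-fold and 100 by 4-fold, all drawn from genes with more than low counts. It found 42% of the 2-fold and 91% of the 4-fold changes, with 8 false calls among 141. In the real data 4004 of 15561 genes were called, so these rates need not hold for the comparison made here.

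Values in every library are given for called members (up to 8 per family by lowest p) and for the 2 uncalled members of highest mean CPM in each family. Other members with such values were chosen after their values were seen. In other lists up to 4 called genes by lowest p are named (1 such gene is not reported here), and of the copy pairs the 4 with the largest difference among those with at least 2 CPM. Alternatives were RLE, upper quartile and no scaling factors, other count filters, DESeq2 1.42.0, limma-voom (limma 3.58.1), a replicate block, a threshold of 0.01 and leaving out each library.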

Additional observations from a re-analysis of the deposited data

How the results depend on the processing

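Of the 15 called guidance rows, 7 kept the call in all 15 alternatives, namely EFNA2 (ENSDARG00000031372), epha2a, sema3aa, ROBO2, ROBO3, PLXNA1 (ENSDARG00000114823) and EPHB2 (ENSDARG00000037373), 8 lost it in 1 or more, and 0 reversed. Of 48 uncalled rows, 15 were called in 1 or more. With total counts alone, the median log2 fold change was -0.26 over all genes and -0.36 over the guidance rows. This scaling left 1095 higher calls over all genes and 2 among the guidance rows, both in the Eph and ephrin family, and called 1 netrin receptor row lower. The log2 ratio of summed levels was then 0.057 for Eph and ephrins and -0.66 for semaphorins, plexins and neuropilins, and for netrins and their receptors it was -0.13 against 0.10. Without a low-count filter 1 Robo and 1 netrin row were higher. A threshold of 0.01 left 2052 genes (1089 higher, 963 lower) and 7 guidance rows (2 higher, 5 lower), with 2 higher and 1 lower Eph and ephrin rows and 2 lower semaphorin, plexin and neuropilin rows, by construction fewer.

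Leaving out 1 library gave 2521 to 3763 called genes (1363 to 1952 higher, 1158 to 1811 lower) and 8 to 18 guidance rows (2 to 9 higher, 6 to 13 lower). By family these were 2 to 5 higher and 1 to 2 lower for Eph and ephrins, 0 to 1 and 2 to 3 for Slit and Robo, 0 to 1 and 3 to 7 for semaphorins, plexins and neuropilins, and 0 to 2 and 0 to 1 for netrins and their receptors. The log2 ratios of summed levels ran from 0.19 to 0.41, -0.52 to -0.10, -0.56 to -0.28 and -0.14 to 0.28 in that order. The copy differences ran from 1.44 to 1.64 (EPHB2), 0.84 to 1.79 (EFNA5 over efna5b), 0.70 to 1.12 (SEMA3F) and 0.36 to 0.74 (nrp1b over NRP1). Of 390 counts of higher or lower genes in the 13 other lists, 57 moved beyond 1.5 times. The labels state no pairing, so no pairs were assumed. Deviations from the group means correlated at 0.25, 0.069 and 0.20 between libraries of the same number, all of them positive. Whether libraries of the same number belong together was not tested. With the replicate number as a block 22 guidance rows were called, 6 higher and 16 lower. Over all 15561 tested genes the calls rose as well, to 5059 (2491 higher, 2568 lower) from 4004 without the block. Among the guidance rows were 1 higher Robo row (robo4) and 1 higher and 1 lower netrin family row (NTN1 ENSDARG00000105112 and UNC5D ENSDARG00000092722). The block also called ROBO1 (-0.64, adjusted p = 0.0046), PLXNA2 (0.0224), PLXNA3 (0.0201) and SEMA6A (0.0345) lower. Causes of these shifts were not tested. Depth limits rows under about 5 CPM, such as efna5b.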

Other observations

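The proneural gene atoh7 of the retinal ganglion cell list, chosen after its values were seen, had 797, 29.0 and 26.9 CPM in mutants 1 to 3, against 227, 19.2 and 14.0 CPM in siblings 1 to 3. It was far higher in both replicate 1 libraries than in the other libraries of either group. What the libraries of the same number share was not tested. The groups overlapped, and the gene was not called (log2 fold change 1.73, adjusted p = 0.596 by edgeR's quasi-likelihood test).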
